A study of Mus musculus with 18 samples.

Results

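Imprinted genes that steer fetal growth were followed in sorted mouse cardiac fibroblasts through the first 2 weeks after birth. The set holds 10 genes of the 55453 gene symbols in the deposited count table: Igf2, H19, Cdkn1c, Grb10, Dlk1, Meg3, Mest, Peg3, Plagl1 and Ndn. They were picked as a group on their levels in these same libraries, read in the order P2, P5, P10 and P13, so their differences between the ages are given as a description, with no test. All 10 were among the 16170 symbols that passed the filter on low counts.

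The cells were GFP+ cells of the Tcf21 lineage from Tcf21-MerCreMer/+; Rosa-mTmG/+ pups. C57BL/6J is the only background strain the paper names. In this model Cre made from the Tcf21 locus, active after 4-hydroxytamoxifen, swaps membrane tdTomato for membrane GFP, so the sort takes cells in which Tcf21 drove Cre at the time of the injection and their progeny. All pups received the drug at P1. The 6 groups of 3 libraries were P2 baseline and P10 baseline from pups without surgery, P2 sham +3 days and P10 sham +3 days from pups with a sham operation, and P2 resected +3 days and P10 resected +3 days from pups whose ventricular apex was cut off. Pups operated on at P2 were collected at P5 and those operated on at P10 were collected at P13. Resection at P2 falls in the window in which the mouse heart regenerates, and resection at P10 falls after it. The sources used here do not say how many pups went into a library or of which sex they were, so p-values measure the spread between libraries, which may be partly technical.

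An imprinted gene is read mainly from the copy inherited from 1 parent, set by DNA methylation laid down in the egg or the sperm. As a textbook rule, paternally expressed members such as Igf2, Dlk1, Mest, Peg3, Plagl1 and Ndn include promoters of fetal growth, while maternally expressed members such as H19, Cdkn1c and Grb10 include restrainers of it. Meg3 is a maternally expressed long RNA beside Dlk1. In many organs these genes are high before birth and are turned down as body growth slows. Counts per symbol do not separate the parental copies, so imprinting itself was not measured.

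The genes lie in a few domains (coordinates in GRCm38, GENCODE M21). Igf2 (chr7:142650766-142666816, minus strand) and H19 (chr7:142575529-142578143, minus) share a domain, with Cdkn1c (chr7:143458339-143461050, minus) further along the same chromosome. Ndn (chr7:62346569-62350262, plus) and Peg3 (chr7:6703892-6730431, minus) lie elsewhere on chromosome 7. Dlk1 (chr12:109452823-109463336, plus) and Meg3 (chr12:109541001-109571726, plus) are neighbours on chromosome 12. Mest is at chr6:30723547-30748465 (plus), Plagl1 at chr10:13060504-13131694 (plus) and Grb10 at chr11:11930508-12038683 (minus).

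Reads were counted without regard to strand, and reads over exons of more than 1 gene were left out, which bears on 6 members, chiefly Igf2, Mest and Cdkn1c. Of the 5723 exon bases of Igf2, 62.8% are shared with Gm49394 on the same strand, which had 0 counts, and only 2029 bases belong to Igf2 alone. These overlaps are those of GENCODE M21, and the authors counted with M22. Mest shares 23.1% of its exon bases with Copg2 on the other strand and Cdkn1c 30.7% with the antisense gene Gm44732. The shared part was 9.1% for H19, 8.3% for Meg3 and 0.5% for Plagl1. For Meg3, 3.73% of all 75-base stretches of its transcripts occur also in Gm27000, Gm27335 or Mir1906-2, so a small part of its reads could have gone uncounted, and the other members had none such.

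The RefSeq promoter table (GRCm38.p6, 250 bases before to 50 after a start) held 15 windows for 8 of the 10 members. The 4 windows printed here belong to Dlk1 and Mest, the members with the most regular course, and to Peg3 and Plagl1, because Plagl1 is the factor whose site was searched and Peg3 is the member with a match to it. Capitals mark the only motifs searched, on both strands: GGGGCCCC, a site bound by the Plagl1 protein, and TGCCGC, the core site of Zfp57, which keeps methylation on imprinted copies. The latter reads GCGGCA where it lies on the other strand. Each sequence runs 5′ to 3′ on the strand of its gene.
Dlk1, chr12:109452573-109452872, plus: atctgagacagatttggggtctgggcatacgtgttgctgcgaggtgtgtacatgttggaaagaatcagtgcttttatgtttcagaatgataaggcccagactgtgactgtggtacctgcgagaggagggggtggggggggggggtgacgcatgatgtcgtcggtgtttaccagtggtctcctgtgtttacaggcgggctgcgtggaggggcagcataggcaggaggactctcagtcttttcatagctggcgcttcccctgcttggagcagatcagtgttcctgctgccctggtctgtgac
Mest, chr6:30737800-30738099, plus: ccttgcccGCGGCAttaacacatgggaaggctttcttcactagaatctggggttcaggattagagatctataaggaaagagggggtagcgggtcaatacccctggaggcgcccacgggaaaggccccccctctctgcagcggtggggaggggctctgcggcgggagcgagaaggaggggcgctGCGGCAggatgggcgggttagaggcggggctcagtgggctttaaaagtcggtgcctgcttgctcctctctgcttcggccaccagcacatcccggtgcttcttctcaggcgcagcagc
Peg3, chr7:6730370-6730669, minus: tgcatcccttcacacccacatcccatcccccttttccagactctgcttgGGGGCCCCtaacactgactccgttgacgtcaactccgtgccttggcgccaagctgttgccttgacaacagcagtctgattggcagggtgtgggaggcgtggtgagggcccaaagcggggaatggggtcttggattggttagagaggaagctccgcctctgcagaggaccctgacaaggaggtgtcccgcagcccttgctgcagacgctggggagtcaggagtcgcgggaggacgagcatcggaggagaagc
Plagl1, chr10:13090582-13090881, plus: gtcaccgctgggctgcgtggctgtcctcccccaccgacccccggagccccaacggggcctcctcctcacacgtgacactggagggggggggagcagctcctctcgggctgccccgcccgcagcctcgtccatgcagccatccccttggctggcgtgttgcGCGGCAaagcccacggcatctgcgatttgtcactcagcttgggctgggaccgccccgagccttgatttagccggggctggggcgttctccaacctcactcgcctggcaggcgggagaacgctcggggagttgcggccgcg

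The Mest window printed holds 2 Zfp57 cores, the Plagl1 window 1, the Peg3 window 1 Plagl1 site, and the Dlk1 window neither. Over all members' windows, 6 of 15 held a Zfp57 core, in 5 genes, and 1 of 15 a Plagl1 site. The 2 near-identical Mest windows overlap almost whole, and the remaining Mest window, at chr6:30733256-30733555, held neither motif. Of all 32851 promoter windows in the table, 11.6% held the Zfp57 core and 1.08% the Plagl1 site. A match describes letters and does not show binding.

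Some members also carry microRNAs, shown for their seeds (bases 2 to 8, in capitals). H19 holds miR-675 within an exon, and Mest holds miR-335 within an intron.
miR-675-5p: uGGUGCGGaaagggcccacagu
miR-675-3p: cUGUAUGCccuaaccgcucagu
miR-335-5p: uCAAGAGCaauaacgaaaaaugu

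The 3 seeds differ from each other. Poly(A)-primed libraries of this kind do not measure mature microRNAs, and the Mir675 hairpin had 0 counts and the Mir335 hairpin 13 over all 18 libraries. The host transcripts below are what was measured.

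Libraries held 10462737 to 22980554 reads on genes. The sorted cells expressed all 8 fibroblast markers checked, with Tcf21 at 202.5 to 447.5 CPM (a gene's reads relative to the TMM-adjusted total of its library) and Pdgfra at 256.3 to 878.5 CPM. The summed level of the 8 fibroblast markers was 18320 to 37960 CPM in the P2 groups and 33610 to 46600 CPM in the P10 groups. At baseline it was 18320 to 25880 CPM at P2 and 33610 to 41000 CPM at P10, without overlap. The summed level of 8 cardiomyocyte markers, none at 0 in all libraries, was 300.4 to 1422 CPM in the P2 groups and 151.7 to 801.7 CPM in the P10 groups. Between the baselines it did not overlap, at 1064 to 1422 CPM at P2 and 516.3 to 683.3 CPM at P10. The 8 macrophage markers summed to 5.294 to 326.1 CPM in the P2 groups and 12.13 to 817 CPM in the P10 groups, the latter in P10 resected +3 days replicate 2. The 6 markers of mural cells summed to 292.8 to 438.1 CPM at P2 baseline and 575.8 to 1311 CPM at P10 baseline, without overlap. The part of these cells in the members' levels was not tested, and fewer cells of a type and less RNA per cell cannot be told apart in bulk samples. P10 and P13 hearts were also digested longer than P2 and P5 hearts, which cannot be told apart from age.

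**Figure D1:**
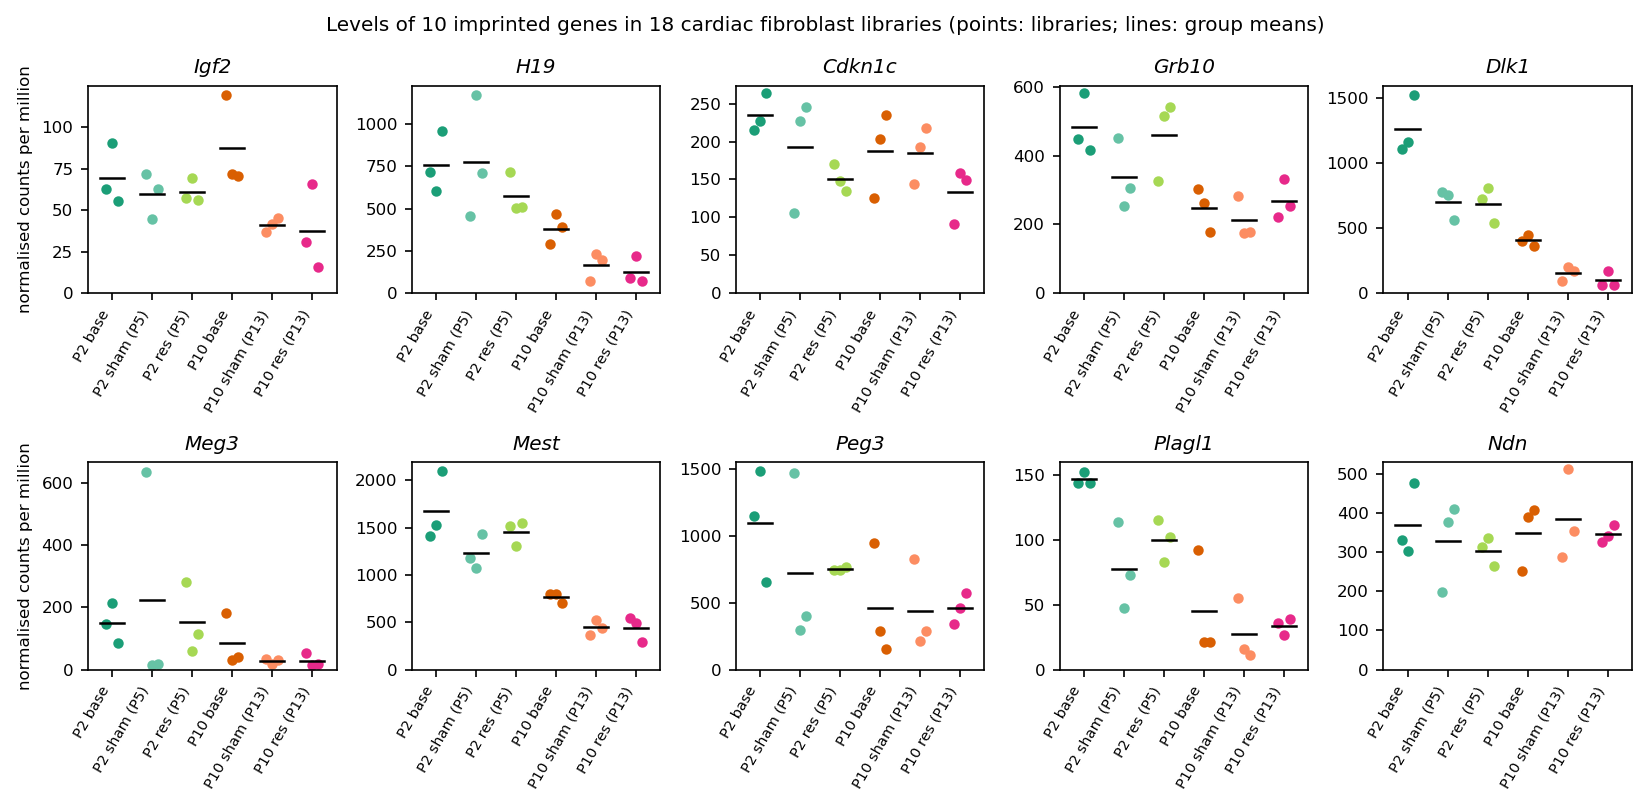
Normalised CPM of the 10 imprinted genes (y axis, linear from 0, a panel per gene) in each of the 18 libraries (points) of the 6 groups (x axis), with group means as lines. The Dlk1 libraries of unoperated and sham pups lie lower at each later age without overlap, while Ndn stays between 197.4 and 513.5 in all libraries.

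Dlk1 and its neighbour Meg3 both had lower means at P13 than at P2, with a far wider spread between libraries for Meg3. Dlk1 encodes a membrane protein of the Notch ligand kind that keeps precursor cells from maturing. Its libraries stood at 1104, 1163 and 1517 CPM at P2 baseline and at 775.8, 755.7 and 562.9 CPM at P2 sham +3 days. They stood at 721.3, 802.9 and 537.8 CPM at P2 resected +3 days, at 398.1, 449.3 and 365 CPM at P10 baseline, at 92.9, 202.1 and 171.1 CPM at P10 sham +3 days and at 62.33, 173.2 and 62.39 CPM at P10 resected +3 days. No library of one age in the unoperated and sham series overlapped the next age. In that series P2 and P10 pups were unoperated and P5 and P13 pups had sham surgery. At each step, for this and the other members, sham surgery therefore cannot be told apart from age. From P2 to P5, 1610 of the 16170 genes tested were free of overlap in either direction, from P5 to P10 2096, and from P10 to P13 1622. The group mean of Dlk1 at P10 sham +3 days was 12.3% of the P2 baseline mean, and at P10 resected +3 days 7.88%.

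Meg3, a long RNA thought to restrain cell division, was the most uneven member. Its 3 libraries at P2 sham +3 days held 635, 13.56 and 18.6 CPM, and those at P2 resected +3 days 282.2, 58.66 and 114.7 CPM. The levels were 147.6, 214.7 and 86.03 CPM at P2 baseline, 182.3, 32.37 and 38.87 CPM at P10 baseline, 35.36, 16.62 and 31.73 CPM at P10 sham +3 days and 51.69, 14.43 and 18.8 CPM at P10 resected +3 days. The group means at P13 were 27.91 CPM for sham and 28.31 CPM for resected libraries, but 2 of the 3 P2 sham libraries lay below both, so no step along the ages was free of overlap. P2 sham replicate 1 alone set the mean of its group at 222.4 CPM.

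In the H19-Igf2 domain, the long RNA fell further from P2 baseline to P10 sham +3 days than the growth factor. The mean of Igf2 there was 59.3% of its P2 baseline mean. For both genes only the step from P10 to P13 was free of overlap. H19, a maternally expressed RNA that is abundant in fetal mesoderm, had 714.9, 605.1 and 963 CPM at P2 baseline, 454.6, 1172 and 709.7 CPM at P2 sham +3 days and 718.4, 501.5 and 507.4 CPM at P2 resected +3 days. It had 291.4, 466.6 and 389.1 CPM at P10 baseline, 73.17, 231.8 and 196.5 CPM at P10 sham +3 days and 87.13, 216.7 and 73.57 CPM at P10 resected +3 days. H19 did not fall from P2 to P5, where the libraries overlapped, and the separated step was that from P10 to P13. At P13 the sham mean was 22% of the P2 baseline mean.

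Igf2 encodes insulin-like growth factor 2, the main fetal growth factor of the family. It had 62.84, 90.38 and 55.81 CPM at P2 baseline, 71.79, 44.68 and 62.92 CPM at P2 sham +3 days and 57.12, 69.21 and 56.32 CPM at P2 resected +3 days. Its highest library of all was at P10 baseline, where the values were 119.8, 72.13 and 70.44 CPM. It then held 36.81, 41.91 and 45.31 CPM at P10 sham +3 days and 30.67, 65.59 and 15.85 CPM at P10 resected +3 days. No step of Igf2 up to P10 was free of overlap, and the sham libraries at P13 were all below those at P10 baseline.

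Of the maternally expressed growth restrainers outside H19, Grb10 had a larger fall in mean level than Cdkn1c. Cdkn1c encodes p57Kip2, an inhibitor of cyclin-dependent kinases. Its level averaged 235.4 ± 26.07 CPM in the unoperated P2 pups (SD, n = 3 here and in what follows), 193.3 ± 76.11 CPM at P2 sham +3 days, 187.9 ± 56.14 CPM at P10 baseline and 185.1 ± 37.3 CPM at P10 sham +3 days, with overlap at each step. Grb10 encodes an adaptor that dampens insulin and IGF1 receptor signalling. Its means were 483.8 ± 87.68 CPM, 337.6 ± 103.6 CPM, 247.8 ± 64.85 CPM and 211.7 ± 61.7 CPM in the same order (SD, n = 3), again with overlap at each step. Along the unoperated and sham groups the means of both genes were lower at each later age, but neighbouring ages did not differ beyond the spread of their libraries. Between the baselines, each P10 library of Grb10 lay below each P2 library, as was so for 1955 of the 16170 genes tested. The resected groups did not follow the order of the means. Cdkn1c averaged 151 ± 17.46 CPM at P5 and 133 ± 36.22 CPM at P13, and Grb10 averaged 461.9 ± 117.9 CPM and 268.8 ± 56.98 CPM, so that Grb10 at P13 lay above its P10 baseline mean and Cdkn1c at P5 below its own.

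Among the remaining paternally expressed genes, Mest had the most regular course. Mest encodes an enzyme of the alpha/beta hydrolase fold that marks mesoderm. It held 1407, 1522 and 2097 CPM at P2 baseline, 1183, 1075 and 1435 CPM at P2 sham +3 days, 1515, 1302 and 1552 CPM at P2 resected +3 days, 794, 797.5 and 708.2 CPM at P10 baseline, 370.4, 523.9 and 440.3 CPM at P10 sham +3 days and 543, 488.5 and 290.2 CPM at P10 resected +3 days. The steps from P5 to P10 and from P10 to P13 were free of overlap between unoperated and sham libraries, and the step from P2 to P5 was not.

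Plagl1 encodes a zinc finger factor that acts on other imprinted genes. At P2 baseline its 3 libraries lay close together, at 144.2, 152.9 and 144.3 CPM. They spread to 113.7, 47.4 and 73.17 CPM at P2 sham +3 days, 92.57, 21.4 and 21.01 CPM at P10 baseline and 55.39, 16.1 and 11.22 CPM at P10 sham +3 days, with replicate 1 the highest in each of these groups. In the resected groups the values were 115.3, 82.97 and 102.5 CPM at P5 and 35.89, 26.69 and 39.08 CPM at P13. Only the step from P2 to P5 was free of overlap.

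Peg3, a large zinc finger protein linked to growth and nurturing behaviour, had even wider groups. Its values were 1149, 1481 and 651 CPM at P2 baseline, 1471, 295.4 and 399.4 CPM at P2 sham +3 days, 943.8, 290.4 and 155.2 CPM at P10 baseline and 825.2, 210.9 and 287.1 CPM at P10 sham +3 days. The resected libraries were tighter, at 746.9, 746.5 and 764.2 CPM at P5 and 343.6, 458.9 and 571.7 CPM at P13. The means of Peg3 were lower at each later age, yet every step overlapped.

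Ndn encodes necdin, a MAGE family protein that holds back cell division. Like Cdkn1c, whose estimate with a covariate is given below, Ndn showed no resolved step between neighbouring ages. Its means were 370.6 ± 94 CPM at P2 baseline, 328 ± 114.3 CPM at P2 sham +3 days, 349.7 ± 85.42 CPM at P10 baseline and 384.5 ± 116.4 CPM at P10 sham +3 days (SD, n = 3). All neighbouring ages overlapped.

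Per kilobase of exon the order of the members turned over. Levels are given here as CPM per kilobase of the exon bases that a member does not share with another gene. At P2 baseline Mest led with 552.3 ± 121.8, followed by H19 with 340.5 ± 82.02 and Dlk1 with 223 ± 39.45, while Cdkn1c had 166.5 ± 18.44 and Ndn 100.3 ± 25.45 (SD, n = 3). At P10 sham +3 days Mest still led with 146.7 ± 25.33, but Cdkn1c with 130.9 ± 26.38 and Ndn with 104.1 ± 31.51 came next, and the mean of Dlk1 was 27.47 ± 9.949. The 3 leading means at P13 lie near each other beside their spread. Over all exon bases the order at P13 was Mest with 112.8, Ndn with 104.1 and Cdkn1c with 90.78, so the places of Ndn and Cdkn1c depend on the bases counted. Meg3 was lowest at both times on either scale.

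In the 3 P10 groups together, the log2 fold change against the 3 P2 groups was −2.20 (SE 0.21) for Dlk1, −2.08 (SE 0.63) for Meg3, −1.80 (SE 0.26) for H19, −1.59 (SE 0.33) for Plagl1 and −1.44 (SE 0.14) for Mest. It was smaller for Peg3, at −0.89 (SE 0.37), and for Grb10, at −0.81 (SE 0.17). Igf2 was at −0.30 (SE 0.22), Cdkn1c at −0.19 (SE 0.18) and Ndn at 0.11 (SE 0.17). The estimates were below 0 for 9 of the 10 members, and their median was −1.16 against −0.06 over all genes tested. Dlk1 and Mest were the members with each of the 9 P10 libraries below each of the 9 P2 libraries, a state of 1.36% of all genes tested. Since the members were picked on this contrast, nothing is read from these counts.

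**Figure D2:**
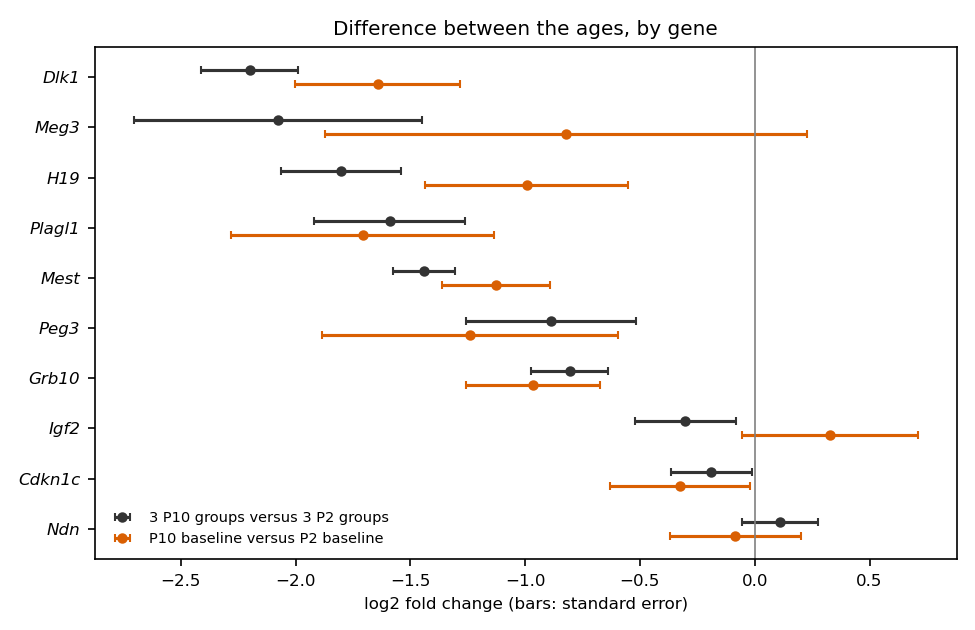
Log2 fold change (x axis, with standard error bars) of each imprinted gene (y axis) between all P10 and all P2 groups (dark) and between the baseline groups (orange). Dlk1 is lowest in the comparison of all groups at −2.20, and Igf2 stands at 0.33 (SE 0.38) at baseline and −0.30 (SE 0.22) over all groups.

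At baseline alone, before any surgery, the log2 fold changes of P10 against P2 were −1.71 (SE 0.57) for Plagl1, −1.64 (SE 0.36) for Dlk1, −1.24 (SE 0.64) for Peg3, −1.13 (SE 0.23) for Mest, −0.99 (SE 0.44) for H19 and −0.96 (SE 0.29) for Grb10. Those of Meg3 and Cdkn1c were −0.82 (SE 1.05) and −0.33 (SE 0.31). Those of Igf2 and Ndn were 0.33 (SE 0.38) and −0.08 (SE 0.29). The estimates over all groups were further below 0 than those between the baselines for Dlk1, H19, Mest and Meg3, and nearer to 0 for Plagl1, Peg3, Grb10 and Cdkn1c. These differences were not tested. The largest dependence on 1 library was that of Meg3. Without P2 sham +3 days replicate 1 its log2 fold change over all groups was −0.81 in place of −2.08, and that of Peg3 was −0.54 in place of −0.89. Without P10 baseline replicate 1 the baseline values were −2.07 for Meg3, −2.29 for Peg3, −2.79 for Plagl1 and 0.03 for Igf2. The baseline value of Igf2 ran from 0.03 to 0.56 with 1 library left out. Without P10 resected +3 days replicate 2 the value of Igf2 over all groups was −0.53.

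The spread within groups was not used to choose the genes, and its direction in a given library differed between members with long and short exons. An exon-length score was computed for each library as the median deviation of 3331 genes with more than 7000 exon bases minus that of 4284 genes with under 2500. The highest scores were 0.80 in P10 baseline replicate 1, 0.74 in P2 sham +3 days replicate 1 and 0.61 in P10 sham +3 days replicate 1. The lowest score was −0.80, in P2 sham +3 days replicate 2. Malat1, a long nuclear RNA, reached 866.9 and 843.8 CPM in the first 2 of these libraries and 1111 CPM in P2 resected +3 days replicate 1, against 110.9 to 557.6 CPM in the others. The 3 libraries with the highest scores carry the same sample number in their titles, which no resected library has, and their deviations over all genes had r of 0.291 to 0.378 with each other.

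Deviations from the group means varied with this score, upward in the members with the longest exons. Over 18 libraries, which share their preparation, the r with the score was 0.98 for Peg3 (13324 exon bases), 0.87 for Plagl1 (7819), 0.80 for Grb10 (9089) and 0.75 for Meg3 (18089). It was −0.87 for Ndn (3694), −0.80 for Cdkn1c (2039) and −0.73 for H19 (2460). Dlk1, Mest and Igf2, of middle length, had −0.27, −0.21 and 0.34. Other measures ran along with the deviations as closely in some members. Meg3 had an r of 0.91 with Malat1 and 0.89 with Kcnq1ot1, Ndn had −0.87 with Kcnq1ot1 and −0.72 with the fibroblast marker sum, and Grb10 had 0.82 with that sum. The spread on the log2 scale was largest for Meg3 (SD 1.55) and smallest for Mest (SD 0.28).

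Between members, the 6 pairs among Peg3, Plagl1, Grb10 and Meg3 all had a positive within-group r, from 0.38 to 0.83. The 24 pairs that join 1 of these with a shorter member had a median of −0.46. Ndn and Cdkn1c had 0.81 and Dlk1 and H19 0.77, while the neighbours Dlk1 and Meg3 had −0.15. Whether length, nuclear RNA content or cell make-up sets these values was not tested.

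**Figure D3:**
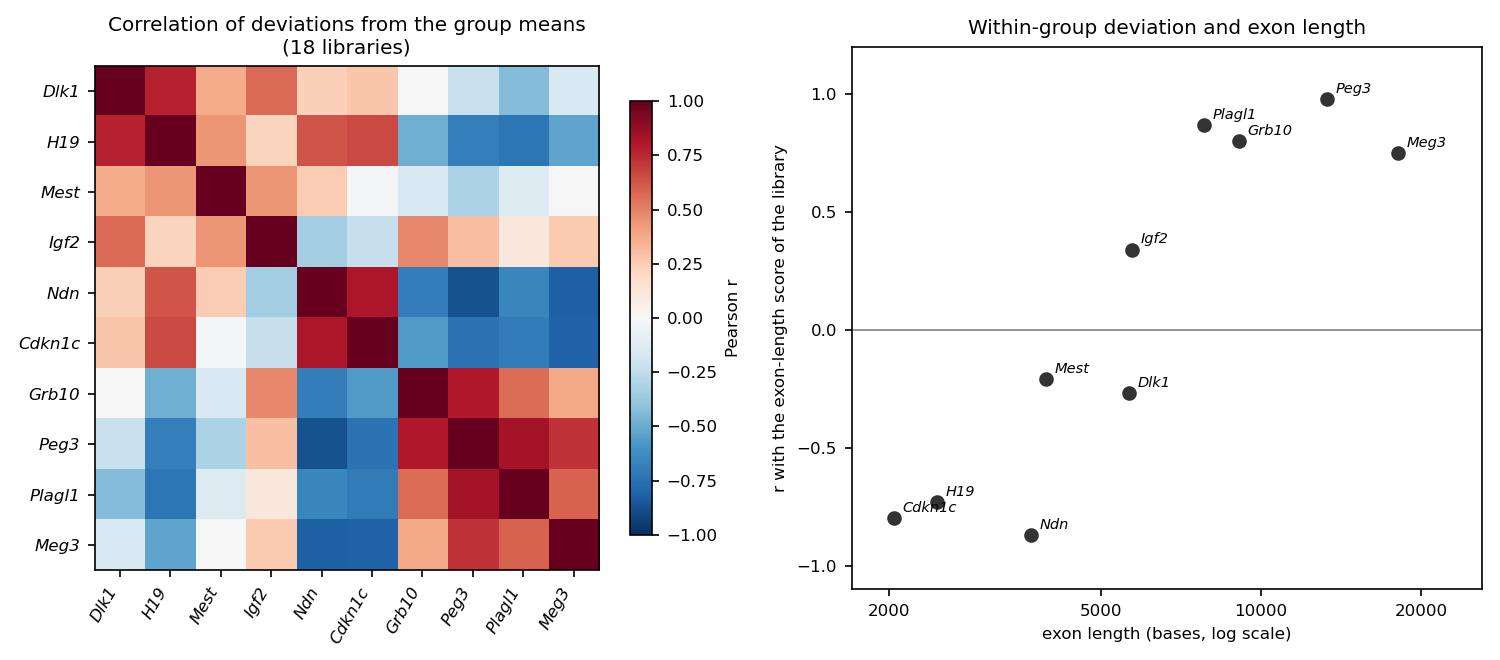
Left, Pearson r between the imprinted genes of their deviations from group means on the log2 scale over 18 libraries (colour). Right, r of each gene's deviation with the exon-length score of the library (y axis) against its exon length in bases (x axis, log scale). The genes with 7819 or more exon bases lie at r from 0.75 to 0.98, and Cdkn1c, H19 and Ndn lie at −0.73 or below.

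With the score as a covariate, an alternative added after seeing the data, the log2 fold change of the P10 against the P2 groups was −2.25 for Dlk1, −1.95 for H19, −1.57 for Plagl1, −1.46 for Mest, −1.15 for Meg3, −0.71 for Grb10 and −0.67 for Peg3. The standard error of Peg3 went from 0.37 to 0.10 and that of Plagl1 from 0.33 to 0.17. Cdkn1c stood at −0.29 (SE 0.12), Igf2 at −0.23 (SE 0.21) and Ndn at 0.01 (SE 0.09). Between the baselines Cdkn1c stood at −0.53 (SE 0.20) in place of −0.33 (SE 0.31). All 9 estimates below 0 over all groups stayed below 0.

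Resection against sham asks whether the levels of these genes differ after injury, and this contrast was not used to choose the members. In the edgeR fit, with quasi-likelihood F tests and p-values adjusted after Benjamini and Hochberg over all genes, 0 of 10 members were called at P2 and 0 of 10 at P10, where 0% of all genes tested were called at P2 and 0% at P10. No member was free of overlap between resected and sham libraries at either age, against 8.47% of all genes at P2 and 8.68% at P10. Unadjusted p-values under 0.05 were also 0 for the members, and 730 of all genes tested had one at P2 and 660 at P10. DESeq2 called 0 members as well, with 25 of all genes at P2 and 39 at P10, and limma voom called 0 members and 0 genes at either age.

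The intervals show what size of change the data leave room for. At P2 the log2 fold change of resected against sham was 0.24 for Mest (95% interval −0.25 to 0.73), −0.02 for Dlk1 (−0.76 to 0.71), 0.03 for Igf2 (−0.78 to 0.83) and −0.44 for H19 (−1.36 to 0.49). At P10 it was −0.01 for Mest (−0.50 to 0.47), −0.65 for Dlk1 (−1.39 to 0.10), −0.15 for Igf2 (−0.95 to 0.66) and −0.41 for H19 (−1.34 to 0.52). The intervals of Meg3 ran from −2.75 to 1.65 at P2 and from −2.19 to 2.24 at P10, so that large changes either way were not detectable. Those of Peg3, Plagl1, H19 and Cdkn1c also exceeded 1 in size on the log2 scale on at least 1 side at both ages. The same held for Dlk1 at P10 and for Grb10 at P2.

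**Figure D4:**
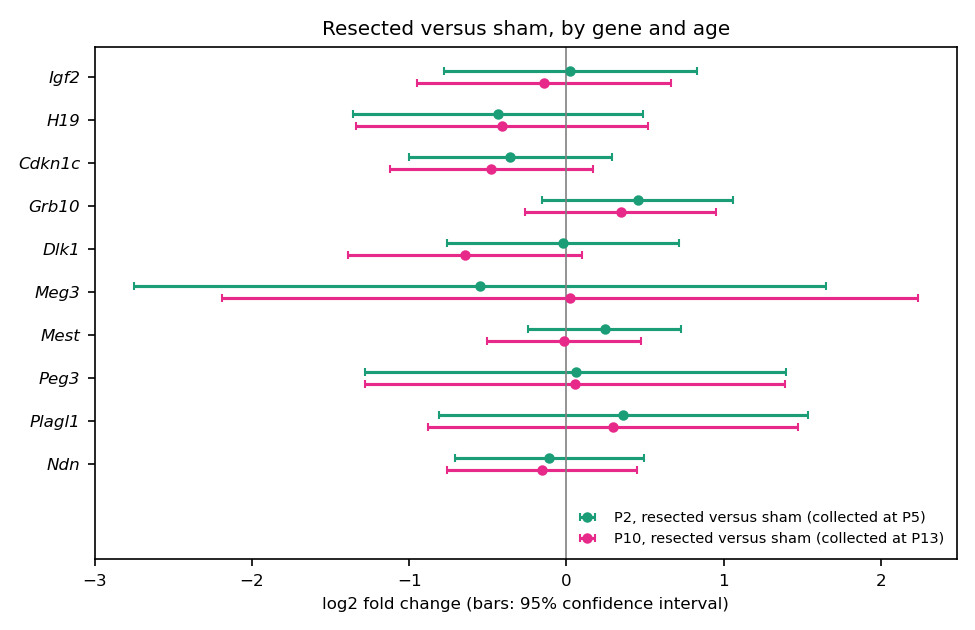
Log2 fold change of resected against sham libraries (x axis, bars are 95% confidence intervals) for each imprinted gene (y axis) at P2 (green) and P10 (pink), 3 libraries per group. All 20 intervals include 0, and those of Meg3 are the widest.

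Averaged over both ages, the smallest p-values were those of Grb10, with a log2 fold change of 0.40 (SE 0.20, unadjusted p = 0.068, adjusted p = 0.88 by edgeR), and Cdkn1c, with −0.42 (SE 0.22, unadjusted p = 0.071, adjusted p = 0.88 by edgeR). Here 0 members and 0% of all genes were called, with 934 of all genes and 0 members at an unadjusted p under 0.05. DESeq2 called 68 genes and voom 51, none of them a member. The difference between the resection effects at P10 and P2 was tested too, and 0 members and 0% of all genes were called. An unadjusted p under 0.05 was found for 465 of all genes and 0 members, and DESeq2 called 24 genes and 0 members. The largest of these differences in size among the members were −0.62 (SE 0.50) for Dlk1 and 0.57 (SE 1.48) for Meg3.

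The resection estimates leaned on single libraries. Without P2 sham +3 days replicate 1, the log2 fold change at P2 was 3.24 for Meg3 in place of −0.55 and 1.12 for Peg3 in place of 0.06. Without P10 sham +3 days replicate 1, that at P10 was 1.31 for Plagl1 in place of 0.30. Without P10 resected +3 days replicate 2, the library richest in macrophage markers, that at P10 was −1.32 for Dlk1 in place of −0.65, −1.06 for H19 in place of −0.41 and −0.83 for Igf2 in place of −0.15. Leaving out any single library gave 0 members called.

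Leaving out together the replicate 1 libraries of P2 sham, P2 resected, P10 baseline and P10 sham, chosen after seeing their Malat1 levels and scores, changed this count. Averaged over both ages, 4 members were then called by edgeR, with 3.66% of all genes. Plagl1 (log2 fold change 0.97, adjusted p = 0.017), Grb10 (0.77, adjusted p = 0.025) and Peg3 (1.00, adjusted p = 0.041) were higher after resection and Cdkn1c (−0.68, adjusted p = 0.034) was lower. The sham libraries left had exon-length scores from −0.80 to −0.26 and the resected ones from −0.10 to 0.25. With the score as a covariate over all 18 libraries, 0 members were called and Grb10 stood at 0.33 (SE 0.13, adjusted p = 0.37 by edgeR).

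Other imprinted genes were listed by their known imprinting, but with earlier results of these libraries known, so that tests on the lists are not independent of the data. The lists hold 31 neighbours in the members' domains and 32 imprinted genes elsewhere, of which 56 passed the filter in all. Between the baselines, 1 was higher at P10 and 1 lower, against 2.71% and 1.68% of all genes tested. These were Dcn, with a log2 fold change of 1.02 (adjusted p = 0.029 by edgeR), and Slc38a4, with −1.07 (adjusted p = 0.046 by edgeR). The Slc38a4 call was lost in 14 of the 18 fits that leave out 1 library and the Dcn call in 4. Both were lost with only the libraries compared, and with RLE size factors 2 were higher and 0 lower. Over all groups, 5 were higher in the P10 groups and 6 lower, against 7.11% and 6.39% of all genes. This split moved with the processing, with 3 higher and 10 lower without a filter on low counts, 5 and 9 with the replicate block, 6 and 9 by DESeq2 and 9 and 15 by voom. The median log2 fold change of the 56 was −0.35, beside −0.06 over all genes. The share called was 19.6%, where 13.5% of all genes were called.

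Within the members' own domains, 3 of 28 neighbours tested were called, or 10.7%, where 13.5% of all genes were called, so the share is near that of all genes. Rian, a long RNA read on from Meg3, was lower in the P10 groups at 12.37 ± 8.859 CPM against 41.06 ± 21.64 CPM (SD, n = 9, log2 fold change −1.77, adjusted p = 0.0068 by edgeR). Magel2, a MAGE family gene next to Ndn, went from 9.876 ± 9.148 to 0.8075 ± 1.34 CPM (SD, n = 9, adjusted p = 0.0016 by edgeR), with 4 libraries at 0, so its fitted log2 fold change of −4.76 depends on the prior count. The mean of Magel2 was 20.34 CPM at P2 baseline, 2.338 CPM at P2 sham +3 days, 6.945 CPM at P2 resected +3 days and 2.09 CPM at P10 baseline. Osbpl5, a lipid transfer protein beyond Cdkn1c, was higher, at 178.5 ± 25.98 against 123.6 ± 18.3 CPM (SD, n = 9, log2 fold change 0.53, adjusted p = 0.0079 by edgeR).

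The neighbours held other long RNAs. Kcnq1ot1, the antisense RNA of the Cdkn1c domain, had a log2 fold change of −1.76 (SE 0.79, adjusted p = 0.15 by edgeR). It ranged from 0.5072 to 58.1 CPM within P2 sham +3 days, where its highest library was replicate 1, as for Meg3. The call of Rian held in all 18 fits that leave out 1 library.

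Of imprinted genes elsewhere, Nnat and Peg10 were lower. Nnat, which encodes the small membrane protein neuronatin, held 5.981 to 17.43 CPM in the P2 groups and 0.3885 to 3.552 CPM in the P10 groups, without overlap (log2 fold change −2.75, SE 0.33, adjusted p = 2.2e-05 by edgeR). Peg10, a gene derived from a retrotransposon and needed in the placenta, went from 9.579 ± 6.613 to 1.425 ± 1.275 CPM (SD, n = 9, adjusted p = 0.0051 by edgeR). Its domain partner Sgce, a sarcoglycan, was higher, with a log2 fold change of 0.33 (adjusted p = 0.039 by edgeR), as was Pon2 of the same cluster, with 0.46 (adjusted p = 0.041 by edgeR). The calls of Sgce and Pon2 were each lost in 14 of 18 fits that leave out 1 library and without a filter, and that of Pon2 also without the 4 libraries left out together above.

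Dcn, the matrix proteoglycan decorin whose imprinting is known from the placenta, was higher, at 13680 ± 3051 against 7133 ± 1785 CPM (SD, n = 9, log2 fold change 0.95, adjusted p = 0.00026 by edgeR). Peg13, a long RNA in an intron of Trappc9, had 0.66 (adjusted p = 0.021 by edgeR), a call lost without P10 resected +3 days replicate 1 and without the 4 libraries left out together above. Slc38a4, an amino acid transporter, was lower at 90.5 ± 29.3 against 215.3 ± 49 CPM (SD, n = 9, log2 fold change −1.26, adjusted p = 7.1e-05 by edgeR). Airn, the antisense RNA of Igf2r, was named after its values were seen. It had −0.94 (adjusted p = 0.033 by edgeR), a call lost in 9 of 18 such fits. Igf2r, the receptor that clears Igf2, had −0.59 (SE 0.26, adjusted p = 0.15 by edgeR).

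**Figure D5:**
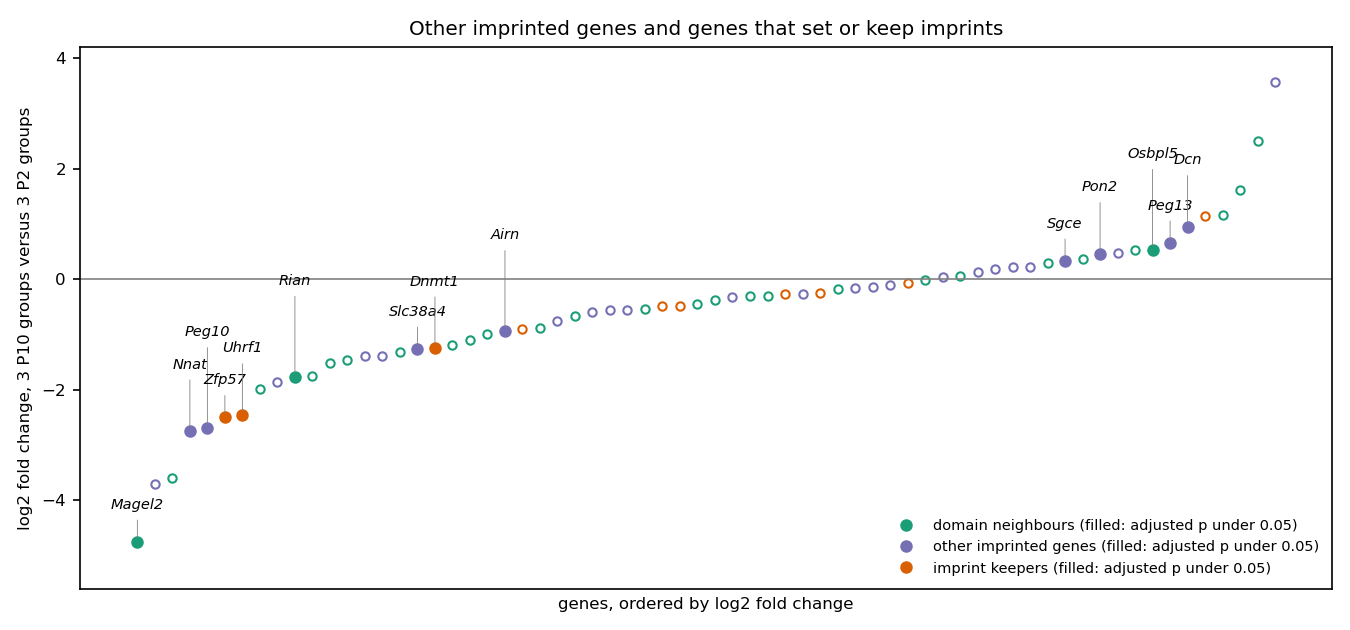
Log2 fold change of the 3 P10 groups against the 3 P2 groups (y axis) for each tested neighbour of the members (green), imprinted gene elsewhere (purple) and gene that sets or keeps imprints (orange), ordered along the x axis by this value. Filled and named points passed an adjusted p of 0.05, with 5 above 0 and 9 below.

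Of 11 genes that set or keep imprints, 10 were tested and 3 were lower in the P10 groups, where 6.39% of all genes were lower. Between the baselines Uhrf1 and Dnmt1 were called lower too, with log2 fold changes of −2.51 and −1.40 (adjusted p = 0.0038 and 0.044 by edgeR). The baseline call of Dnmt1 was lost in 9 of 18 fits that leave out 1 library, with RLE size factors and with only the libraries compared, and that of Uhrf1 in 0 of 18. Uhrf1, which brings the methylase to newly copied DNA, went from 78.12 ± 22.64 to 14.53 ± 5.672 CPM (SD, n = 9, log2 fold change −2.46, adjusted p = 5.7e-06 by edgeR). Zfp57, whose core site is marked in the promoters above, went from 13.27 ± 7.283 to 2.686 ± 1.947 CPM (SD, n = 9, log2 fold change −2.50, adjusted p = 0.00031 by edgeR). Dnmt1, the maintenance methylase, was named after its values were seen and had −1.25 (adjusted p = 0.00079 by edgeR). Uhrf1 and Dnmt1 are known to rise in dividing cells. Trim28, the partner of Zfp57, had −0.25 (SE 0.12, adjusted p = 0.17 by edgeR), and Ctcf, which insulates the H19-Igf2 domain, −0.26 (SE 0.14, adjusted p = 0.23 by edgeR).

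Genes outside the set with the most similar course were ranked by r with the mean standardised profile of the 10 members over 18 libraries. This is a description, since the points share groups and libraries. Slc38a5, an amino acid transporter, came first at r = 0.93, then Cpe, a processing enzyme of peptide hormones, at 0.93, Mpzl1 at 0.92, Col11a1, a collagen of fetal cartilage, at 0.91, and Slc38a4 at 0.91. Fbxo5, an inhibitor of the anaphase-promoting complex, Gpc3, a glypican, and Shisa2 followed with 0.91, 0.91 and 0.91. Mean levels in the P2 and P10 groups were 49.11 and 19.51 CPM for Slc38a5, 679.9 and 430.1 CPM for Gpc3 and 91.66 and 16.87 CPM for Col11a1.

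The members themselves differed in how far they followed that mean. Each member is part of the mean, which raises its r beside that of genes outside the set. The r was 0.96 for Dlk1, 0.94 for Mest and 0.86 for H19, but 0.37 for Cdkn1c and −0.15 for Ndn. With Dlk1 alone, H19 had 0.95 and Mest 0.93. Outside the set, the genes most like Dlk1 were Slc38a5 (0.95), Cpe (0.92) and Tnni1 (0.92), the last a slow troponin of fetal muscle, with means of 55.41 CPM in the P2 and 4.962 CPM in the P10 groups. Those most like Igf2 were Hunk (0.84), Itga8 (0.83) and Thsd4 (0.83). Tnni1 is a gene of muscle cells, and the ranges of the cardiomyocyte marker sum are given above. Its part in the likeness of Tnni1 to Dlk1 was not tested.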

How the data were processed

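Bulk RNA sequencing of sorted Tcf21-lineage cells was analysed in 18 libraries. The authors trimmed single-end reads with fastp 0.20.0, mapped them with STAR 2.7.0f to GRCm38.p6 and counted reads on exons per gene name of GENCODE M22 with featureCounts (Subread 1.6.4), without strand. The deposited values are these raw counts. Groups follow the sample labels.

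Counts were tested with edgeR 4.0.16 (quasi-likelihood, TMM) in R 4.3.3, with 1 mean per group over all 18 libraries, after filterByExpr (minimum count 10, minimum total 15). Of 55453 symbols, 28906 had a count and 16170 were tested, and adjusted p-values under 0.05 were called. CPM values use TMM library sizes. DESeq2 1.42.0, limma 3.58.1 voom, other scalings and filters, a replicate block and leaving out each library were alternatives. Genes were placed with GENCODE M21, the annotation at hand. The steps were tested on simulated data.

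The members and lists were chosen with earlier results of these data known. The rule names every member, the listed genes called with the largest change (up to 6 higher and 6 lower over both kinds of list), and the genes most like the members' mean (8), Igf2 (3) and Dlk1 (3).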

Additional observations from a re-analysis of the deposited data

How the results depend on the processing

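The 4 counts of members called after resection were 0 with every other test, scaling, filter and block tried and with any 1 library left out. Averaged over both ages, 4 were called only without the 4 replicate 1 libraries named above, an alternative added after seeing the data. The count of members lower in the P10 groups was 9 with RLE size factors, with any 1 library left out and without those 4 libraries. Imprinted genes of the lists called between the baselines were 2. They were 5 without a filter, 6 with the replicate block, 7 with DESeq2, 20 with limma voom, 0 with only the libraries compared, 15 without the 4 libraries, 8 with the exon-length score, and 0 to 6 with 1 library left out. Over all groups they were 11, with 24 by voom and 8 to 15 with 1 library left out. Genes that keep imprints were 3, with 5 by voom, 5 without the 4 libraries and 3 to 4 with 1 left out. All genes called in that comparison were 2183, with 4569 by voom, 3500 with the exon-length score and 3400 without the 4 libraries. The listed genes were 7 higher and 9 lower with the score, and 4 higher and 10 lower without the 4 libraries. The causes were not tested. Genes called over the whole table between the baselines were 709, with 1155 without a filter, 1008 with the block, 1573 by DESeq2, 3645 by voom, 2736 without the 4 libraries, 1717 with the score, 295 with only the libraries compared and 264 to 1207 with 1 library left out (the lowest without P10 baseline replicate 2, the highest without P10 baseline replicate 1). By voom, which weights libraries by quality, the resection estimate of Meg3 at P2 was 2.10 in place of −0.55. Between sham and resected libraries of 1 age and between the baselines, replicate numbers did not pair the libraries. Deviations of same-numbered libraries there had r of −0.135 to 0.171. Over all 45 same-numbered pairs r was −0.135 to 0.378, with 15 over 0.1. The highest joined replicate 1 of P2 sham, P10 sham and P10 baseline, which the comparison of all P10 with all P2 groups includes. The block changed no count on the members. The effect of depth was not tested.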
